A study of Homo sapiens with 12 samples.

Results

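ANKRD1, CCN1 and CCN2, 3 target genes of the Hippo pathway, were examined together with 7 genes of the pathway itself, AMOTL1, AMOTL2, LATS2, YAP1, WWTR1 (which encodes TAZ), TEAD1 and TEAD4. These 10 genes are read by 24 of the 54613 probe sets tested, among 19775 named genes. All probe sets whose platform symbol is 1 of the 10 names were taken, with no filter on level, and the probe set with the highest mean over the 12 arrays leads for each gene. ANKRD1 and CCN2 were chosen by their measured values, since both were known to pass the test for metastin-10 under control siRNA and the comparison of siRNAs with metastin-10 present. The other 8 genes were added for their place in the pathway with results of these data known. Values in those 2 comparisons and in the interaction, which uses the same arrays, are therefore given for the 10 genes as a description with no test.

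The arrays (Affymetrix U133 Plus 2.0) measured total RNA of Ishikawa cells, an established human endometrial cancer line. All cells had been transfected with an siRNA for 48 h and then given a peptide for 24 h. The 4 groups of 3 arrays were GPR54 siRNA with 10 µM metastin-10, GPR54 siRNA with control peptide, negative control siRNA with 10 µM metastin-10, and negative control siRNA with control peptide. Metastin-10 is a short kisspeptin peptide, and GPR54, now named KISS1R, is its receptor. The deposited design asks what metastin-10 changes and whether this runs through that receptor. Cells of 1 line stand for the tumour here, all arrays carry an siRNA and a peptide, and untransfected cells were not analysed here.

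The Hippo pathway is a kinase chain that restrains growth. STK3 and STK4 with SAV1 activate LATS1 and LATS2, which phosphorylate the coactivators YAP1 and TAZ and so keep them out of the nucleus. Unphosphorylated YAP1 and TAZ bind TEAD factors on DNA and raise a set of target genes, of which CCN1, CCN2 and ANKRD1 are among the most used readouts. LATS2 and AMOTL2 are targets as well as inhibitors, and signals from G protein-coupled receptors and from the actin cytoskeleton are known to reach the pathway.

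Promoter windows are shown for the 2 genes with the highest differences, because both hold matches to the TEAD core. The windows run from 250 bases before to 50 bases after the annotated start, from RefSeq on build GRCh38.p14. ANKRD1 lies on the minus strand (chr10:90921038-90921337) and so does CCN2 (chr6:131951323-131951622). Both are printed 5′ to 3′ on the gene's strand, and capitals mark matches to GGAATG or its reverse complement CATTCC.
ANKRD1: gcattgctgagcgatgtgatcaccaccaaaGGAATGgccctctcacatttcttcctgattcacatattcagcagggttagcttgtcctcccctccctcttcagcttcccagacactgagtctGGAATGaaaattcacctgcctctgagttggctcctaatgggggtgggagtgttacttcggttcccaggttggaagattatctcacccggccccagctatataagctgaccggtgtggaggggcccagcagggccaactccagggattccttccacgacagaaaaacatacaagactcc
CCN2: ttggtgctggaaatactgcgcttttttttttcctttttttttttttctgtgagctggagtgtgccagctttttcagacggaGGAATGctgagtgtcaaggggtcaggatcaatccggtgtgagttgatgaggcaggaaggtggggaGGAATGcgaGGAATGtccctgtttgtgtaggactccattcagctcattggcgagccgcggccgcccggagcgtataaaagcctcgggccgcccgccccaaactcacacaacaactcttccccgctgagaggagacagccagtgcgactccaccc
The ANKRD1 window held 2 matches, which began at -220 and -128 relative to the start. The CCN2 window held 3, at -169, -104 and -95. RefSeq windows were matched for 7 of the 10 genes (9 windows), and 5 windows, 1 each of ANKRD1, CCN2, AMOTL2, LATS2 and YAP1, held the core. CCN1, TEAD1 and TEAD4 had no window, so no motif count here covers them. Among all 35116 windows of this length 14.0% held it on either strand. The pattern TGANTCA (N for any base), used here to look for AP-1 motifs, was found in the ANKRD1 window alone among these 9. The match read TGATTCA, began at -195 and did not overlap with a TEAD core. Of all windows 7.71% held this loose pattern. The CArG box, the motif of serum response factor, was in 0 of the 9 windows and in 1.29% of all windows. A match describes letters in a window, and binding was not measured.

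KISS1R, the target of the siRNA, showed no knockdown in the arrays so labelled. It averaged 9.43 ± 0.11 in those and 8.84 ± 0.49 in the control siRNA arrays (SD, n = 6 each, log2 RMA level; exact permutation test over 924 splits, two-sided p = 0.013), which is the direction opposite to a knockdown. The pooled difference rests on 1 group: it was 1.03 with metastin-10 (limma, adjusted p = 0.000391) and 0.14 with control peptide (limma, adjusted p = 1.0), and KISS1R was lower with metastin-10 under control siRNA by -0.88 (limma, adjusted p = 0.00213). Whether its 1 probe set reads the transcript that the siRNA targets was not tested. KISS1R lay at 9.28 to 9.60 in the arrays labelled GPR54 siRNA with metastin-10, and at 9.36 to 9.46 in those labelled GPR54 siRNA with control peptide. It lay at 8.35 to 8.43 in control siRNA arrays with metastin-10 and at 9.14 to 9.39 in control siRNA arrays with control peptide. Every direction below that involves the siRNA therefore refers to the label. The third replicate of each group stood apart: the β-actin control probe sets differed by 0.29 to 0.36 (log2, 3′ minus 5′) in these 4 arrays and by 0.66 to 0.90 in the other 8. All 6 epithelial markers were measured, at mean log2 levels of 9.67 to 13.99, against 3.48 to 5.20 for the 4 leukocyte markers measured. Lists of stromal, smooth muscle and endothelial markers held 1 or more genes with high levels, up to 9.84, 9.90 and 6.97.

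By their leading probe sets, ANKRD1, CCN1 and CCN2 shared a pattern over the 4 groups: each was highest on the 3 arrays of control siRNA with metastin-10. ANKRD1 and CCN2 were chosen on comparisons with these arrays on the high side, so nothing is read from the shared pattern. Under control siRNA, metastin-10 arrays exceeded control peptide arrays 2.23-fold for ANKRD1, 1.68-fold for CCN2 and 1.41-fold for CCN1. In the arrays labelled GPR54 siRNA the differences were 0.07 for ANKRD1, -0.06 for CCN2 and 0.02 for CCN1 on the log2 scale, and none of the 10 genes passed the test. In bulk RNA, a change in the share of cells that express a gene and a change in RNA per cell cannot be told apart.

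ANKRD1 encodes a muscle ankyrin repeat protein that works in the nucleus as a cofactor of transcription and in the sarcomere of muscle. Its 1 probe set read 6.03, 5.97 and 5.96 in arrays labelled GPR54 siRNA with metastin-10, against 5.98, 5.73 and 6.04 in those labelled GPR54 siRNA with control peptide. It read 6.70, 6.64 and 6.79 in control siRNA arrays with metastin-10, against 5.46, 5.50 and 5.72 in control siRNA arrays with control peptide. The control siRNA arrays with metastin-10 were the highest of the 12 without overlap with any other group, and those with control peptide were the lowest. The difference under control siRNA was 1.15 ± 0.10 (log2 ± SE, 95% interval 0.94 to 1.37, n = 3 each), with 1.24, 1.15 and 1.07 between arrays of the same replicate number. Without the third replicates it was 1.20. In the arrays labelled GPR54 siRNA the groups overlapped and the difference was 0.07 (95% interval -0.15 to 0.29; limma, adjusted p = 1.0).

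CCN1 encodes a matricellular protein that binds integrins and promotes adhesion and migration. Its leading probe set read 10.58, 10.70 and 10.52 in arrays labelled GPR54 siRNA with metastin-10, against 10.45, 10.61 and 10.67 in those with control peptide. It read 10.84, 11.15 and 10.97 in control siRNA arrays with metastin-10, against 10.48, 10.53 and 10.48 in control siRNA arrays with control peptide. For this probe set only the control siRNA arrays with metastin-10 stood clear of the other groups, and the remaining 3 groups overlapped. Under control siRNA the difference was 0.49 ± 0.10 (log2 ± SE, 95% interval 0.28 to 0.70, n = 3 each), and every same-numbered pair was above 0 (0.36, 0.62 and 0.49). CCN1's other probe set gave 0.43 under control siRNA, 0.05 under GPR54 siRNA and 0.09 between the siRNAs with control peptide. It gave -0.29 between the siRNAs with metastin-10 (95% interval -0.58 to -0.0005), and there its groups overlapped. The probe sets thus had 1 direction in each comparison, but the separation between the siRNAs was that of the leading probe set.

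CCN2, also known as connective tissue growth factor, encodes a matricellular protein that promotes matrix deposition. Its 1 probe set read 7.18, 7.24 and 6.84 in arrays labelled GPR54 siRNA with metastin-10, against 7.26, 7.22 and 6.96 in those with control peptide. It read 7.56, 7.83 and 7.77 in control siRNA arrays with metastin-10, against 6.86, 7.05 and 7.02 in control siRNA arrays with control peptide. The 3 control siRNA arrays with metastin-10 were again the highest of the 12, and the other groups overlapped with each other. Under control siRNA the difference was 0.74 ± 0.12 (log2 ± SE, 95% interval 0.48 to 1.01, n = 3 each), with 0.70, 0.79 and 0.75 in the same-numbered pairs. CCN2 fell short of the threshold, at 0.69 to 0.78, when replicate 2 or 3 of the metastin-10 arrays or any 1 of the control peptide arrays was left out. In the arrays labelled GPR54 siRNA it was -0.06 (95% interval -0.33 to 0.20; limma, adjusted p = 1.0).

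**Figure D1:**
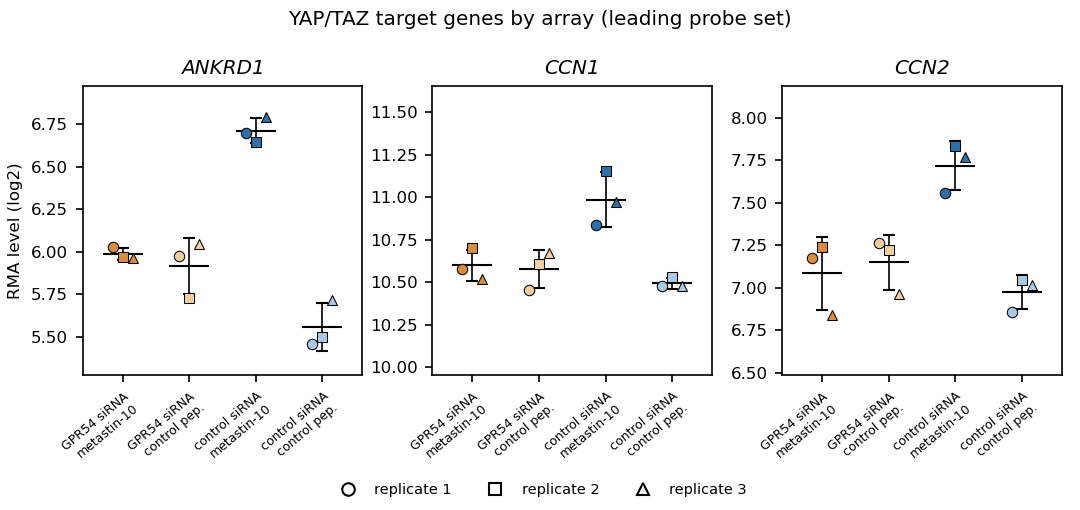
RMA level (log2) of ANKRD1, CCN1 and CCN2 on each of the 12 arrays, leading probe set, by siRNA label and peptide; horizontal bars are group means, error bars are SDs (n = 3) and the marker shape gives the replicate number. Each panel spans the same height. The 3 arrays of control siRNA with metastin-10 are the highest in every panel.

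Under control siRNA, 2 of the 10 genes (ANKRD1 and CCN2) were past the threshold of adjusted p under 0.05 on the high side, where 0.0759% of all genes were, and 0 were past it on the low side, where 0.531% were. The choice of genes used this comparison, so nothing is read from the count. CCN1 was past it too with the replicate number as a block. The groups did not overlap for 4 of the 10 genes (ANKRD1, CCN1, CCN2 and TEAD4), all with metastin-10 higher, against 8.72% of all genes. Their differences ran from -0.17 to 1.15 with a median of 0.05, against a median of 0.01 over all genes. In the arrays labelled GPR54 siRNA, which share no array with that comparison, 0 of the 10 passed and 0.0% of all genes did; 1206 of 54613 probe sets had an unadjusted p under 0.05, and 0 of the 10 genes' leading probe sets were among them. The groups overlapped for all 10, against 4.68% of all genes without overlap, and the differences ran from -0.15 to 0.07.

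With the control peptide, ANKRD1 was the only gene of the 10 whose groups did not overlap between siRNA labels. The lowest of the GPR54 siRNA arrays read 5.73 and the highest of the control siRNA arrays 5.72. The difference was 0.36 ± 0.10 (log2 ± SE, 95% interval 0.14 to 0.58, n = 3 each) and did not pass (limma, adjusted p = 0.569). Groups without overlap on that side made up 6.34% of all genes. CCN2 differed by 0.17 (95% interval -0.09 to 0.44; limma, adjusted p = 1.0) and CCN1 by 0.08 (95% interval -0.13 to 0.29). None of the 10 passed, and 0.0% of all genes did by their leading probe sets. These arrays with control siRNA are those that served as the control for metastin-10 above.

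With metastin-10 present, the arrays labelled GPR54 siRNA were below those of control siRNA by 0.72 for ANKRD1 (95% interval -0.94 to -0.51, log2), by 0.63 for CCN2 (-0.90 to -0.37) and by 0.39 for CCN1 (-0.60 to -0.18). The groups did not overlap for the leading probe sets of these 3 genes, against 6.35% of all genes on the low side. CCN1's other probe set had overlapping groups here. ANKRD1 and CCN2 were past the threshold, where 0.0708% of all genes were lower and 0.966% higher. Both were chosen on this comparison, so nothing is read from these counts. CCN2's differences between arrays of the same number, which were not taken to pair in this comparison, were -0.38, -0.59 and -0.93. Without the third replicates CCN2's difference was -0.49 and no longer past the threshold. Its call was also lost, with values of -0.72 to -0.51, when any 1 array other than replicate 3 of GPR54 siRNA with control peptide was left out. This comparison shares the control siRNA arrays with metastin-10, on which the 3 genes are highest, with the comparison of peptides under control siRNA.

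The interaction, taken as the metastin-10 difference in arrays labelled GPR54 siRNA minus the difference in control siRNA arrays, was -1.08 ± 0.14 for ANKRD1 (log2 ± SE, 95% interval -1.39 to -0.77). It was -0.81 ± 0.18 for CCN2 (-1.19 to -0.43) and -0.47 ± 0.14 for CCN1 (-0.77 to -0.17). CCN1's other probe set gave -0.38 (-0.79 to 0.03). ANKRD1 was the only gene of the 10 past the threshold, where 0.0101% of all genes were lower and 0.0961% higher. The gene was chosen on comparisons that make up the interaction, so nothing is read from this count. The ANKRD1 call was lost, with differences of -1.12 to -1.02, when any 1 of 8 arrays was left out (replicates 1 and 2 of every group except GPR54 siRNA with control peptide, where replicates 1 and 3 did so).

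**Figure D2:**
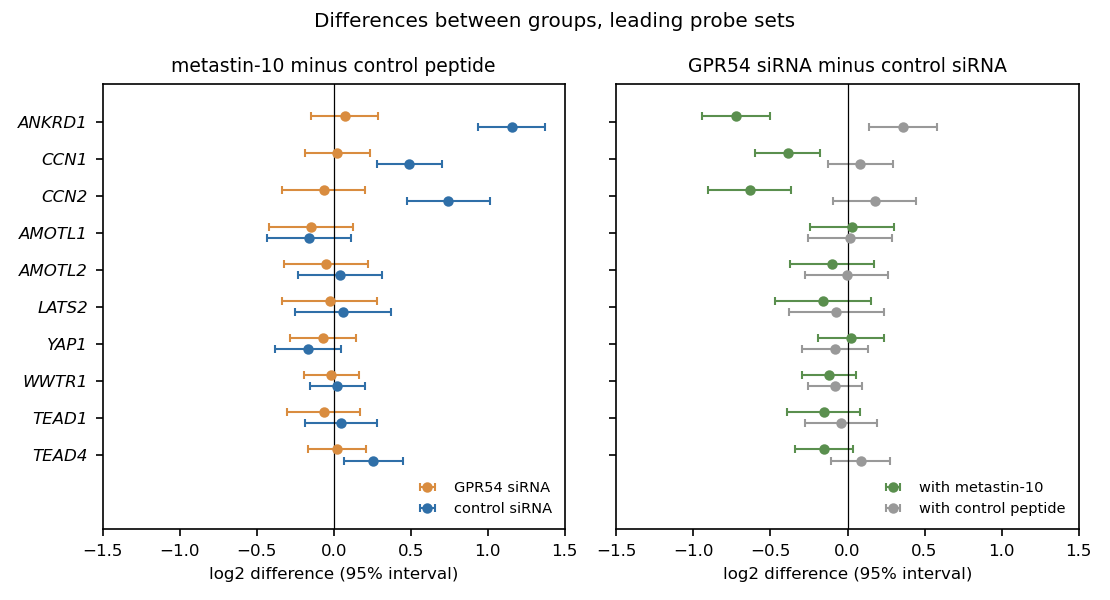
Log2 differences of the 10 genes (leading probe sets) with 95% intervals from the limma fit, n = 3 arrays per group. Left, metastin-10 minus control peptide in arrays labelled GPR54 siRNA and in control siRNA arrays; right, GPR54 siRNA minus control siRNA with metastin-10 and with control peptide. Only ANKRD1, CCN1, CCN2 and, at left, TEAD4 have intervals clear of 0, and none of the genes does for metastin-10 in arrays labelled GPR54 siRNA.

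RNA of the coactivators and their DNA partners moved little, and the amount and location of the proteins were not measured. YAP1, the coactivator that LATS kinases restrain, read 10.50, 10.59 and 10.39 in arrays labelled GPR54 siRNA with metastin-10, against 10.52, 10.65 and 10.50 in those with control peptide. It read 10.34, 10.66 and 10.41 in control siRNA arrays with metastin-10, against 10.60, 10.72 and 10.59 in control siRNA arrays with control peptide. YAP1's leading probe set was lower with metastin-10 in all 3 same-numbered pairs under each siRNA, yet the groups overlapped. Its differences were -0.07 (95% interval -0.28 to 0.15) under GPR54 siRNA and -0.17 (-0.38 to 0.05) under control siRNA. Each of YAP1's other probe sets had 1 pair above 0 under GPR54 siRNA, and 1 of them did under control siRNA. Their differences stayed below 0, at -0.05 and -0.05 under GPR54 siRNA and at -0.16 and -0.08 under control siRNA. WWTR1, the gene of the YAP1 paralog TAZ, lay between 9.14 and 9.36 on all 12 arrays, with differences of -0.01 and 0.02 under the 2 siRNAs.

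TEAD4, a DNA-binding partner of YAP1 and TAZ, read 8.15, 8.28 and 8.34 in arrays labelled GPR54 siRNA with metastin-10, against 8.24, 8.30 and 8.17 in those with control peptide. It read 8.51, 8.41 and 8.31 in control siRNA arrays with metastin-10, against 8.22, 8.17 and 8.07 in control siRNA arrays with control peptide. Under control siRNA the groups did not overlap, and the difference was 0.26 ± 0.09 (log2 ± SE, 95% interval 0.07 to 0.45). The highest of the 12 arrays was again one with control siRNA and metastin-10, but that group overlapped with GPR54 siRNA and metastin-10. TEAD4's other probe set gave 0.18 (-0.04 to 0.41) with overlapping groups. For TEAD1, a TEAD factor of the same family, the differences were -0.07 (-0.30 to 0.17) under GPR54 siRNA and 0.05 (-0.19 to 0.28) under control siRNA.

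RNA of the kinase and of the scaffold proteins that restrain YAP1 and TAZ showed no difference past the threshold. For metastin-10 under control siRNA, 0.0759% of all genes were past it on the high side and 0.531% on the low side. Protein and phosphorylation were not measured, so pathway activity is not read from these levels. LATS2, the kinase, read 9.39, 9.30 and 9.03 in arrays labelled GPR54 siRNA with metastin-10, against 9.43, 9.32 and 9.05 in those with control peptide. It read 9.55, 9.50 and 9.16 in control siRNA arrays with metastin-10, against 9.40, 9.48 and 9.14 in control siRNA arrays with control peptide. The replicates of a group differed by more than the groups did, with differences of -0.03 (-0.33 to 0.28) under GPR54 siRNA and 0.06 (-0.25 to 0.37) under control siRNA. AMOTL2, an angiomotin that binds YAP1 and holds it outside the nucleus, had differences of -0.05 (-0.32 to 0.22) and 0.04 (-0.23 to 0.31). AMOTL1, an angiomotin of the same family, had -0.15 (-0.42 to 0.13) and -0.16 (-0.43 to 0.11). Metastin-10 was lower in all 3 same-numbered pairs under each siRNA for this leading probe set. AMOTL1's other probe sets lay at 0.07, 0.01 and 0.04 under GPR54 siRNA. LATS2 and AMOTL2 are known YAP1 and TAZ targets, and their intervals under control siRNA hold 0 and end at 0.37 and 0.31.

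**Figure D3:**
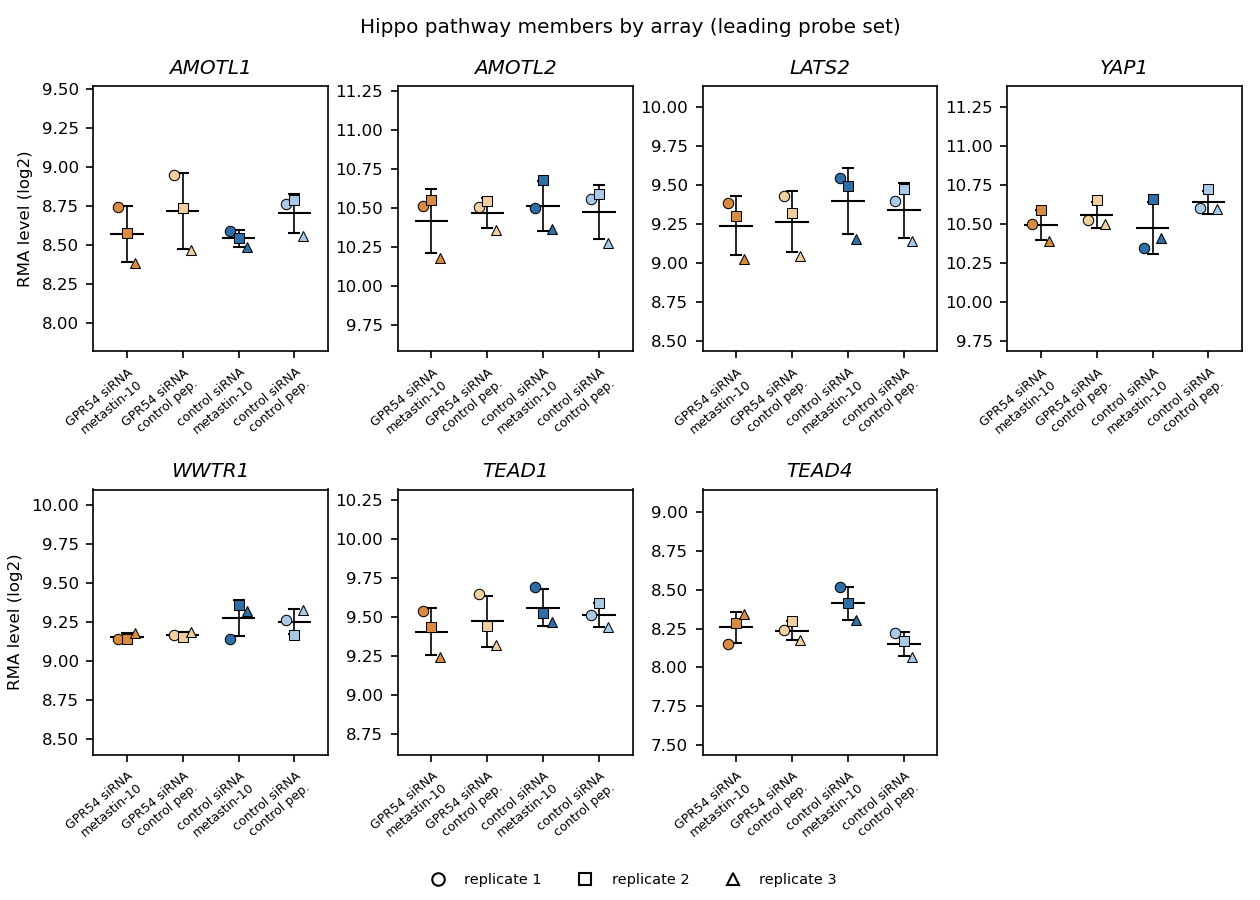
RMA level (log2) of the 7 pathway genes on each array, leading probe set, with group means, SDs (n = 3) and replicate numbers as marker shapes; each panel spans the same height. Replicate 3 (triangles) is the lowest array of every group for AMOTL1, AMOTL2, LATS2 and TEAD1, and the 2 peptides of 1 siRNA overlap except for TEAD4 under control siRNA.

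Within groups, several genes varied with the replicate number. For the leading probe sets of AMOTL1, AMOTL2, LATS2, YAP1 and TEAD1, replicate 3 was below the mean of replicates 1 and 2 in 4 of 4 groups, with average differences of -0.24, -0.26, -0.33, -0.10 and -0.18 (log2). For 8 of the 14 probe sets that do not lead it was above that mean in 4 of 4 groups, as for the dimmest of YAP1's 3 (0.38) and the third of LATS2's 4 by level (0.30). Probe sets of 1 gene thus moved in opposite directions between replicates. Each group holds 1 such array. ANKRD1 (3 of 4 groups above), CCN1's leading probe set (1 of 4) and CCN2 (2 of 4) did not share 1 direction. None of the 14 probe sets that do not lead passed the test in any comparison; those of AMOTL1 lay between -0.03 and 0.03 under control siRNA, and those of WWTR1 at 0.12 and 0.13.

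Over the 12 arrays the leading probe sets of ANKRD1 and CCN1 correlated with r = 0.85, those of ANKRD1 and CCN2 with r = 0.86, and those of CCN1 and CCN2 with r = 0.88. After each group's mean was taken out the values were -0.16, -0.08 and 0.35, so the correlations lie in the group means. The 3 genes share these means through the control siRNA arrays with metastin-10. ANKRD1 and CCN2 were chosen on comparisons that use those arrays, so nothing is read from the correlations over the 12 arrays. Among 9888 genes at or above the median level, the 5 most like ANKRD1 by r over the 12 arrays were RRP36 (0.94, and 0.74 within groups), PSMA5 (0.94, 0.40), PRSS23 (0.94, 0.62), ERRFI1 (0.93, -0.23) and HSP90AA1 (0.93, 0.67). Those most like CCN2 were TAGLN (0.97, 0.91), KLHL13 (0.96, 0.94), SLC25A32 (0.95, 0.81), EFTUD2 (0.94, 0.74) and DOK7 (0.94, 0.57). Of these 10 genes TAGLN alone was past the threshold in any comparison. The 10 were picked for likeness to ANKRD1 or CCN2 over the same arrays, so nothing is read from this. The arrays also share groups and replicate numbers.

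The 7 lists held 56 other genes of the pathway, and in none of the 5 comparisons did 1 pass (limma); so few genes pass overall (0.0759% higher and 0.531% lower for metastin-10 under control siRNA) that 0 of 56 is near the background. An unadjusted p under 0.05 was found for 4 of the 56 for metastin-10 under control siRNA, against 11.9% of all genes, and for 0 under GPR54 siRNA, against 1.81%. It was found for 8 between the siRNAs with metastin-10, against 13.1% of all genes, for 1 with control peptide, against 2.8%, and for 1 in the interaction, against 6.28%. Their median difference for metastin-10 under control siRNA was -0.05. The YAP and TAZ signature of 22 genes had 21 measured (NUAK2 was not), of which 5 are among the 10 genes above. The 2 past the threshold for metastin-10 under control siRNA, ANKRD1 and CCN2, were chosen on this comparison, so nothing is read from them. The 16 signature genes outside the 10 ran from -0.35 to 0.24 with a median of -0.05, and 7 were above 0. Those with the smallest p were RBMS3, an RNA-binding protein (-0.35; limma, adjusted p = 0.452), and CCDC80, a matrix protein (0.23; limma, adjusted p = 0.478). Between siRNAs with metastin-10 the smallest p was that of F3, tissue factor (-0.48; limma, adjusted p = 0.239).

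Close relatives of the 3 targets also stayed short of the threshold. In the CCN family, CCN4, a WNT-induced member, differed by 0.28 for metastin-10 under control siRNA (limma, adjusted p = 0.423) and CCN5 by 0.12 (limma, adjusted p = 0.745). CCN3 was at -0.01 there and differed by 0.39 between the siRNAs with control peptide (limma, adjusted p = 0.443). Of the 2 other muscle ankyrin repeat genes, ANKRD2 differed by 0.44 (limma, adjusted p = 0.341) and ANKRD23 by -0.03 (limma, adjusted p = 0.963) for metastin-10 under control siRNA. The groups did not overlap for ANKRD2, as for 8.72% of all genes on the high side.

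Among 14 other Hippo kinases and adaptors, 5 were above 0 for metastin-10 under control siRNA and the median was -0.07. LATS1, the paralog of LATS2, differed by -0.20 (limma, adjusted p = 0.521) and MOB1B, a LATS cofactor, by -0.22 (limma, adjusted p = 0.609). Among 6 other inhibitors that bind YAP1, TAZ or LATS, the LIM proteins WTIP and LIMD1 had the smallest p, at 0.17 and -0.21 (limma, adjusted p = 0.562 and 0.674). Of 9 upstream cadherins and polarity genes, 2 were above 0, with PATJ at -0.20 and CRB3 at 0.10. Of 6 other effectors, 3 were above 0, with VGLL2, a TEAD cofactor, at 0.31 (limma, adjusted p = 0.457) and TEAD2 at -0.18 (limma, adjusted p = 0.586).

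**Figure D4:**
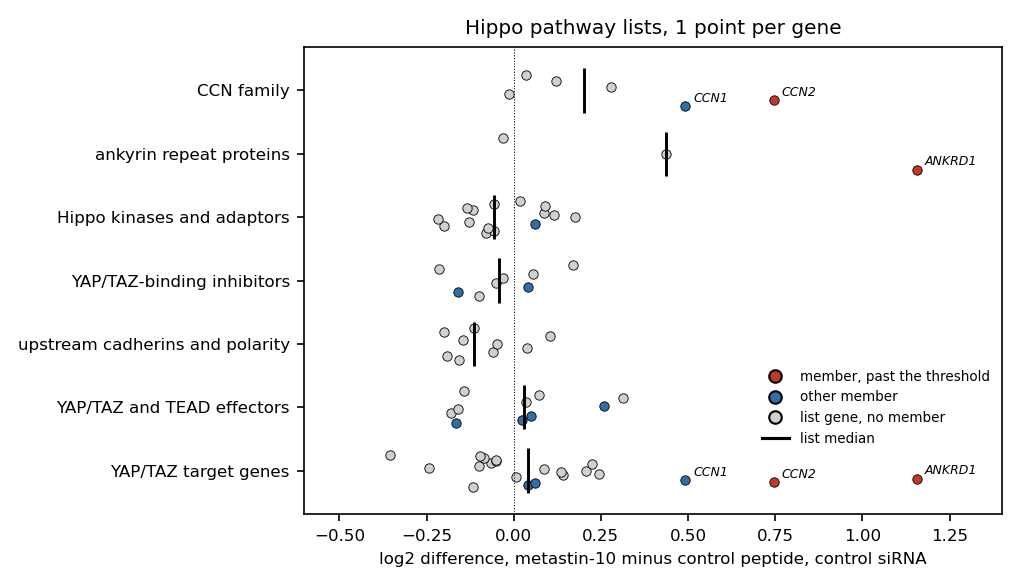
Log2 difference of metastin-10 minus control peptide under control siRNA for each gene of 7 lists (leading probe set, 1 point per gene; genes on 2 lists appear on both), with list medians as vertical bars. ANKRD1 and CCN2 are the only points past the threshold, and the other points of the lists other than CCN1 lie between -0.35 and 0.44.

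Markers of cell types were read in the same groups. Of 6 smooth muscle markers TAGLN alone passed: it encodes transgelin, an actin-binding protein that many cultured cells express, and it was higher with metastin-10 under control siRNA by 0.92 (limma, adjusted p = 0.00116) and lower under GPR54 siRNA than under control siRNA with metastin-10, by -0.78 (limma, adjusted p = 0.00201). The mean level of that list was 6.35 to 6.42 in arrays labelled GPR54 siRNA with metastin-10, 6.26 to 6.41 in those with control peptide, 6.62 to 6.66 in control siRNA arrays with metastin-10 and 6.36 to 6.42 in those with control peptide. The mean level of the epithelial list was 12.27 to 12.36, 12.31 to 12.33, 12.08 to 12.16 and 12.31 to 12.35 in the same 4 groups. Of its 6 genes KRT19, a keratin, alone passed: it was lower with metastin-10 under control siRNA by -0.48 (limma, adjusted p = 0.00901) and higher under GPR54 siRNA than under control siRNA with metastin-10, by 0.59 (limma, adjusted p = 0.00165). The lists themselves were not tested. Of 9 stromal fibroblast, 6 endothelial and 4 leukocyte markers measured, 0 passed in any comparison. The part of these markers in the differences of ANKRD1, CCN1 and CCN2 was not tested.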

How the data were processed

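The authors deposited 1 table of log2 values for 12 arrays, which per the submitters' processing notes come from RMA; the software version is not given in the sources used here. Detection calls and scanner files were not used here, so background is unknown and differences of dim probe sets may be compressed. The table held 54675 probe sets, of which 62 controls were left out. Probe sets were named by the platform annotation (41091 with 1 gene, 1801 with several, 11721 unnamed here).

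From these values limma 3.58.1 in R 4.3.3 fitted 4 group means over all 12 arrays (8 residual degrees of freedom, two-sided tests, Benjamini-Hochberg over 54613 probe sets, threshold 0.05). The labels call the 3 arrays of a group biological replicates; nothing says they came from separate cultures on separate days, so p-values may measure technical spread only. Same-numbered arrays deviated together from the means of their groups, with r of 0.11 to 0.54 in 3 of the 4 comparisons, so the numbers were taken to pair the arrays there, and not between siRNAs with metastin-10 (-0.15 to 0.26). The intervals and adjusted p-values given do not use the pairing, which entered as an alternative with the replicate number as a block. For arrays, their number limits the precision.

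The 10 genes, the lists and the tests were chosen with earlier results of these data known. Named genes are the 10 members, KISS1R, each list's called genes or the 2 with the smallest p, and for ANKRD1 and CCN2 the 5 genes with the highest Pearson r; F3 and CCN3 were named by the same rule in single comparisons. Tested on simulated data for metastin-10 under control siRNA (54613 probe sets), the fit recovered 28% of log2 changes of 0.5 and 84% of changes of 1, with 2 of 114 calls false. The simulated noise was independent between arrays and held no effect of replicate number, unlike these arrays, so the shares hold for that setting only. Alternatives were the replicate number as a block, a term for replicate 3, only the groups compared, array weights, a filter on dim probe sets, centring of arrays, an intensity trend, means over a gene's probe sets and each array left out.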

Additional observations from a re-analysis of the deposited data

Results flagged for a closer look

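ANKRD1 is listed because its interaction was past the threshold, and since the gene was chosen on comparisons that make up the interaction, the value is a description with no test. The interaction was -1.08 on the log2 scale, with a metastin-10 difference of 0.07 in the arrays labelled GPR54 siRNA and 1.15 in the control siRNA arrays. Its call was lost when any 1 of 8 arrays was left out (-1.12 to -1.02) and with replicates 1 and 2 only (-1.05). KISS1R showed no knockdown under that label.

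LATS2's leading probe set was lower with metastin-10 in all 3 same-numbered pairs of the arrays labelled GPR54 siRNA (-0.04, -0.02 and -0.02) and higher in all 3 pairs of the control siRNA arrays (0.14, 0.02 and 0.02). The difference of the effects was -0.087 (95% interval -0.52 to 0.35) and was not past the threshold. The pattern is that of 1 probe set: 2 of the other 3 lay below 0 under control siRNA (-0.12 and -0.06), 1 of these lay at 0.21 under GPR54 siRNA, and the mean over all 4 gave a difference of the effects of 0.026.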

How the results depend on the processing

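ANKRD1's difference under control siRNA, on which the gene was chosen, ran from 1.11 to 1.24 over 21 alternatives. The counts for metastin-10 under GPR54 siRNA and between the siRNAs with control peptide stayed at 0 in every alternative run. For metastin-10 under control siRNA, 1 of the 10 genes and 1 signature gene (ANKRD1) passed with only the 2 groups compared, and leaving out arrays in turn gave 1 to 2; CCN2 was lost when control siRNA replicates 2 or 3 with metastin-10, or any of the 3 with control peptide, were left out. CCN1 was gained in 6 alternatives (0.46 to 0.54), among them the replicate block (3 genes of each list passed); the block changed no other call of the 10 genes. Between siRNAs with metastin-10, 1 of the 10 and 1 signature gene passed with only the 2 groups, with centred arrays and with replicates 1 and 2 only (an alternative chosen after seeing the data), against 4 signature genes with array weights; leaving out arrays gave 1 to 2, and CCN2 was lost for 11 of the 12. In the interaction 2 genes passed with array weights and 0 with replicates 1 and 2 only, and 0 to 1 with arrays left out. The cause of these changes was not tested, except that fewer arrays leave fewer degrees of freedom. Of 1040 single values, 1037 kept their direction and side of the threshold or moved by less than the spread between replicates, 3 moved, and 0 reversed once called. The 1037 include the calls gained or lost above. They also include values that changed sign near 0, as for LATS2 under GPR54 siRNA (16 of 21 alternatives kept the sign). The KISS1R difference between siRNA labels was 0.59 within replicate numbers too (exact permutation test, 216 splits, p = 0.0093).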

Other observations

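ANKRD1 was the only gene of the 3 targets whose control peptide arrays were separated by siRNA label without overlap. ANKRD2, another muscle ankyrin repeat gene, was separated the same way (0.32; limma, adjusted p = 1.0), as were 6.34% of all genes. ANKRD23, of the same family, had overlapping groups and a difference of -0.01. CCN3, another CCN family gene, was higher in the arrays labelled GPR54 siRNA than in control siRNA arrays with either peptide, by 0.32 with metastin-10 (limma, adjusted p = 0.278) and by 0.39 with control peptide (limma, adjusted p = 0.443), and neither passed.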
